A study of Mus musculus with 2 samples.

Results

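Expression of 6 genes of the S100 family (S100a4, S100a6, S100a10, S100a11, S100a8 and S100a9) and of Crip1 was followed across the immune cells of mouse adipose tissue. They were picked by symbol as 7 of the 28692 gene IDs in the count matrices, and their unique molecular identifiers (UMIs, one for each captured transcript molecule) were summed for every cluster of cells and library. Adult wild-type C57BL/6 mice ate chow (labelled as control) or a ketogenic diet for 1 week, and CD45+ cells that intravenous labelling marked as resident in adipose tissue were profiled by droplet sequencing on the 10x Genomics platform. The 2 groups share strain, genotype, tissue and gate, and differ in the diet. Each diet is 1 library, and how many animals went into a library is not given in the sources used here. The genes were chosen because earlier results of these data showed them lower under the ketogenic diet, so every value below is a description and no test between diets was possible. Levels are UMIs per 1000000 UMIs of the cells summed (CPM), brackets hold 95% intervals that cover counting error only, and a log2 ratio is ketogenic over chow with 0.5 added to each count.

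S100 proteins are small EF-hand proteins that change shape on binding calcium and then attach to partners such as myosin, annexins and receptors. S100a8 and S100a9 pair as calprotectin, a hallmark product of neutrophils and of inflammatory monocytes, whereas S100a4, S100a6, S100a10 and S100a11 are made by many activated and migratory leukocytes. Crip1 encodes a small protein with a single LIM zinc-binding domain, and its transcript is abundant in effector lymphocytes and in myeloid cells.

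The 6 S100 genes lie on chromosome 3 (GRCm38) between positions 90603771 and 93564643, in the S100 gene cluster. S100a4 (ENSMUSG00000001020) spans 90603771 to 90606045, S100a6 (ENSMUSG00000001025) spans 90612882 to 90624181, S100a8 (ENSMUSG00000056054) spans 90668978 to 90670035 and S100a9 (ENSMUSG00000056071, minus strand) spans 90692632 to 90695721. S100a11 (ENSMUSG00000027907) spans 93520488 to 93526287 and S100a10 (ENSMUSG00000041959) spans 93555080 to 93564643. Crip1 (ENSMUSG00000006360) spans 113146316 to 113153879 on chromosome 12, beside Crip2 at 113140236 to 113145506. All 7 are annotated as protein coding.

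Promoters are printed for the pair that was found together in single cells, S100a8 and S100a9, and for Crip1, whose median ratio between diets was the lowest of the broadly detected members. RefSeq sequences (GRCm38.p6) were found for 6 of the 7 genes, and each line gives 250 bases before to 30 bases after the RefSeq start, 5′ to 3′ on the strand of the gene. Capitals mark matches, on either strand, to TATAAA (a core promoter box), TTGCNNAA (C/EBP, a myeloid factor family), GAGGAA (core of PU.1, a myeloid factor) or GGGCGG (GC box of Sp and KLF factors).
S100a8 (chr3:90668821-90669100, plus strand): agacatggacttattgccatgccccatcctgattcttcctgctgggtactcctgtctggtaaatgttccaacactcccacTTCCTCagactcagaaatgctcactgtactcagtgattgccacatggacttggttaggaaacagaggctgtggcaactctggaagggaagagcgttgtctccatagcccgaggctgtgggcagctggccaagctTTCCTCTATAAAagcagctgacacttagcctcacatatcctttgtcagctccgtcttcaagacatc
S100a9 (chr3:90695692-90695971, minus strand): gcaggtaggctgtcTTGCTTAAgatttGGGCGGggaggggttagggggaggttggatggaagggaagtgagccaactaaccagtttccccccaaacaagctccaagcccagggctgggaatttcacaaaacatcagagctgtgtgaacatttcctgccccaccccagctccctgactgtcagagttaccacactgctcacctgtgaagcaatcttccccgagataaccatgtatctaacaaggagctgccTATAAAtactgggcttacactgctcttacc
Crip1 (chr12:113151762-113152041, plus strand): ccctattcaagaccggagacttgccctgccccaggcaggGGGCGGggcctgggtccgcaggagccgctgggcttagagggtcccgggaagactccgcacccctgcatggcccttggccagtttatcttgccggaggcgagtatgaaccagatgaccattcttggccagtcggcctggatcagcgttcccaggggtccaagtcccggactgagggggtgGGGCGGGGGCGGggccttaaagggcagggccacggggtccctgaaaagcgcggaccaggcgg

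The S100a8 window held TATAAA at position −30 from the start and GAGGAA on the opposite strand at −170 and −36. In S100a9, TATAAA began at position 1, the annotated start base itself, and the window held TTGCNNAA at −236 and GGGCGG at −223. Crip1 held no TATAAA and 3 copies of GGGCGG, at −211, −32 and −26. Among 32851 mouse promoters of the same length, 13.1% held TATAAA, 10.4% TTGCNNAA, 26.0% GAGGAA and 34.7% GGGCGG. These matches describe letters in the windows and do not show binding.

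The chow library held 4545 cells and the ketogenic library 5614, with a median of 3469 and 3461.5 UMIs per cell. The authors' deposited table placed 4458 and 5559 of them in 13 clusters. Clusters were named from marker lists: ILC2-like (0, with the globin gene Hba-a1 among its leading genes), NK-like (1), T-like (2), macrophage-like (3, with 6 of 7 monocyte markers also raised), cDC2-like (5, with 4 of 8 cDC2 markers raised and also 5 of 6 of plasmacytoid DC, none of them among its 10 leading genes), cDC1-like (6), Treg-like (7, with 7 of 10 ILC2 markers also raised), B and plasma-like (9), cycling (10), γδ T-like (11) and mature DC-like (12). Cluster 4, led by T and NK receptor genes, and cluster 8, led by Retnla, Fcrls and Lyz1, stayed unnamed. Ptprc, which encodes CD45, had a UMI in 82.6% of chow and 82.3% of ketogenic cells, and the adipocyte gene Adipoq had 1 UMI in each library. The 2 libraries differed in make-up: cluster 3 had 859 chow and 145 ketogenic cells, cluster 8 had 362 and 47, and cluster 11 had 59 and 170. Between clusters, the median log2 ratio of all genes ran from −0.04 to 0.50, and the 0.50 was that of cluster 9.

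S100a4, which binds non-muscle myosin and marks motile cells, was highest in γδ T-like cells. It stood there at 3418 CPM in chow [3160 to 3692] and 2572 CPM in ketogenic [2453 to 2696], followed by Treg-like cells at 2112 and 1695. The lowest levels were those of cDC1-like cells, 167 and 136 CPM, and of B and plasma-like cells, 191 and 112. The γδ T-like values did not overlap those of any other cluster, and the 2 lowest clusters could not be ordered because their library values overlapped. Over the 13 clusters, the chow level spanned a 20.5-fold range and the ketogenic level a 22.9-fold range.

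S100a6 (calcyclin) followed a similar order at its upper end. In γδ T-like cells it had 8042 CPM in chow [7644 to 8456] and 5366 CPM in ketogenic [5194 to 5543], above every other cluster in both libraries. By the mean of the libraries Treg-like cells followed, with 4653 and 3333 CPM. Its lowest levels were 838 and 676 CPM in cDC1-like cells and 994 and 602 in B and plasma-like cells. Of the 12 pairs of neighbours in its order, 10 overlapped in their library values.

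S100a10, the light chain that holds annexin A2 at the membrane, was highest in Treg-like cells, at 3160 CPM in chow [3005 to 3320] and 2295 in ketogenic [2216 to 2375]. The library values of γδ T-like cells, 2923 and 1883 CPM, overlapped these. In chow it was lowest in B and plasma-like cells, at 394 CPM [349 to 443], where ketogenic cells had 338 CPM [311 to 366]. In ketogenic it was lowest in mature DC-like cells, at 280 CPM, against 745 in chow, and the library values of these 2 clusters overlapped. S100a11, a partner of annexin A1, was highest in γδ T-like cells, at 3044 and 1882 CPM, and lowest in B and plasma-like cells, at 360 and 335. In contrast to S100a4 and S100a6, S100a11 was not low in cDC1-like cells, where it stood at 1847 and 1506 CPM. For S100a11, 11 of 12 neighbours in the order overlapped, so apart from the B and plasma-like end the order was not resolved.

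Crip1 was highest in cluster 8, the unnamed myeloid-type cluster led by Retnla, at 17547 CPM in chow [17395 to 17700] and 14064 in ketogenic [13605 to 14535]. No other cluster reached either level, but the 13925 CPM of chow cycling cells lay within the ketogenic interval of cluster 8. By the mean of the libraries cDC2-like cells (13168 and 7986 CPM), cycling cells (13925 and 7161) and mature DC-like cells (11890 and 8033) came next, while in chow Treg-like cells, at 13036 CPM, stood above the mature DC-like cells. Of the 12 neighbours in the order of Crip1, 11 overlapped, so below cluster 8 the order was not resolved. B and plasma-like cells had the lowest level, 3669 CPM [3529 to 3813] against 1699 [1638 to 1761]. Crip1 made up 1.07% of all UMIs of the clustered chow cells and 0.493% of those of the ketogenic cells.

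**Figure D1:**
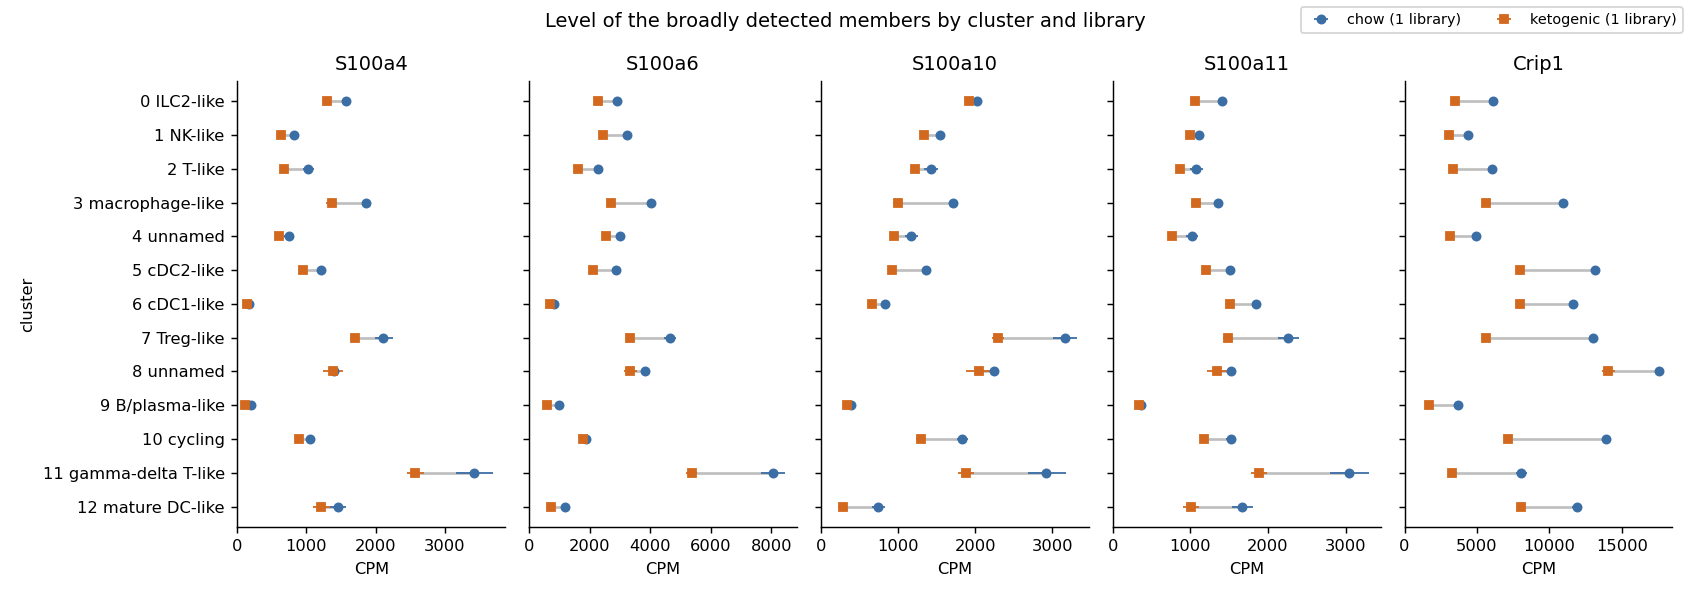
Level in CPM (x axis, linear from 0) of 5 members in each of 13 clusters (y axis), with circles for the chow and squares for the ketogenic library (1 library each) and bars for 95% counting intervals. S100a4 and S100a6 peak in γδ T-like cells, at 3418 and 8042 CPM in chow, Crip1 peaks in cluster 8 at 17547 CPM, and the ketogenic square lies left of the chow circle in every cluster.

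The members were then compared between diets in each cluster. Of 91 pairs of member and cluster, 69 reached 100 UMIs over both libraries: all 13 clusters for S100a4, S100a6, S100a10, S100a11 and Crip1, and only clusters 0 and 3 for S100a8 and S100a9. In 8 of the 69 pairs (11.6%) the ketogenic level was at least 2-fold lower, against 1.6% of all 43359 pairs of gene and cluster at that minimum. Of the 8, 4 were pairs of S100a8 or S100a9, and without the 10 chow cells rich in these genes, described below, 4 of 65 pairs were 2-fold lower. None of the 69 was 2-fold higher, against 2.08% of all pairs. All 69 log2 ratios were below 0, against 42.8% of all pairs, but 4 of the 69 were at or above 0 after 10% of the UMIs of a cluster were subtracted as free RNA (S100a4 in cDC1-like cells turned from −0.29 to 0.34) and 2 when mitochondrial and ribosomal protein genes were left out of the total. With centring on the median gene of a cluster, with means over cells and without the top cell, 1 ratio each was at or above 0. Since the members were picked for being lower, these counts describe them and are no evidence on the diet.

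Crip1 accounted for 3 of the 8 pairs. In γδ T-like cells it had 1531 chow and 2260 ketogenic UMIs, 8063 CPM [7665 to 8478] against 3313 [3177 to 3452], a log2 ratio of −1.28 [−1.38 to −1.19], and 0.525% of genes in that cluster were 2-fold lower. In Treg-like cells it stood at 13036 CPM [12721 to 13357] against 5659 [5536 to 5784], a log2 ratio of −1.20 [−1.25 to −1.16], where 1% of genes were 2-fold lower. In B and plasma-like cells the log2 ratio was −1.11 [−1.19 to −1.03], where 1.27% of genes were 2-fold lower, but −0.97 when mitochondrial and ribosomal protein genes were left out of the total, and it was −1.61 relative to the median gene of that cluster. On that centred scale S100a4 (−1.28) and S100a6 (−1.23) also passed 2-fold in B and plasma-like cells, and Crip1 (−1.04) in cycling cells. As deposited, cycling and macrophage-like cells came close to 2-fold for Crip1, with log2 ratios of −0.96 and −0.95. In macrophage-like cells 10 of 12 genes of the classical monocyte list were above 0, with a list median of 0.67 against 0.07 for all genes; Plac8 stood at 1237 and 2766 CPM and Ccr2 at 922 and 969, but Fn1 at 1701 and 496. Their part in the Crip1 ratio was not tested. Cluster 8 had the ratio nearest 0, −0.32 [−0.37 to −0.27]. The median over the 13 clusters was −0.82.

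The level of macrophage transcripts moved in the same direction in these lymphoid clusters. Summed over 10 macrophage markers, it was 685 CPM in chow and 130 in ketogenic γδ T-like cells (9 of 10 markers detected in each), 1572 and 325 in Treg-like cells and 1193 and 486 in B and plasma-like cells (10 of 10 in each). After subtraction of 10% of the UMIs of a cluster, taken as free RNA with the make-up of the whole library, the Crip1 log2 ratios stood at −1.31, −1.21 and −1.11 in those 3 clusters.

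The shift of Crip1 was spread over the cells of a cluster. In γδ T-like cells the median cell had 56.4 Crip1 UMIs per 10000 in chow and 25.6 in ketogenic, and 63.5% of ketogenic cells lay below the chow lower quartile of 33.9. In cycling cells the medians were 125 and 59.2, with 70.8% of ketogenic cells below the chow lower quartile of 86.0. The make-up of the cycling cluster differed: 10 macrophage markers summed to 2880 CPM in chow and 846 in ketogenic, and 82 of 142 chow but 42 of 154 ketogenic cells had 10 or more of their UMIs. Crip1 stood at 15423 and 9786 CPM in those cells, a log2 ratio of −0.66, and at 10375 and 5502 CPM in the others, a ratio of −0.92. In all 13 clusters the ketogenic median lay below that of chow. The share of ketogenic cells below the chow lower quartile ran from 45.3% in B and plasma-like cells to the 70.8% of cycling cells. The γδ T-like share was the next highest. The quartile boxes nevertheless overlapped in all 13: in cluster 8 the ketogenic box ran from 97.1 to 176 and the chow box from 133 to 212.

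**Figure D2:**
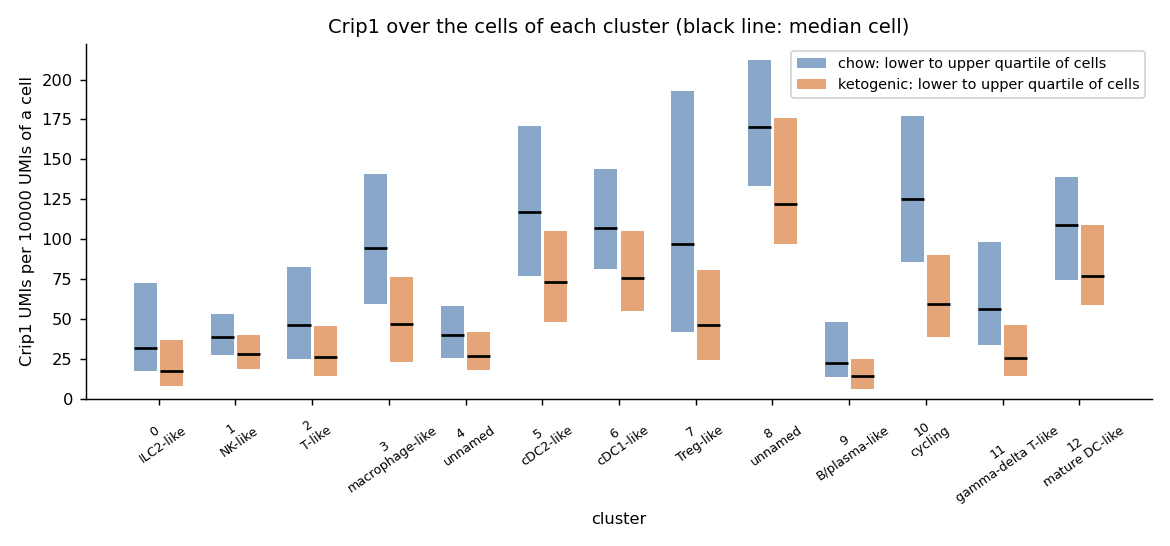
Crip1 UMIs per 10000 UMIs of a cell (y axis, linear from 0) in the 13 clusters (x axis), with a box from the lower to the upper quartile of cells and a black line at the median cell for each library. The ketogenic median lies under the chow median in each cluster, for example at 25.6 against 56.4 in γδ T-like cells, while the boxes overlap in all 13 clusters.

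Cells of 4 lymphoid clusters were parted by UMIs of defining genes, a split added after the data were seen. In Treg-like cells with a Foxp3 UMI (48 chow and 100 ketogenic cells), Crip1 stood at 18610 CPM against 5993, a log2 ratio of −1.63. In those without one (112 and 228 cells), it stood at 11403 against 5525, a ratio of −1.05. S100a4 was also higher where Foxp3 was seen, at 3456 and 2379 CPM against 1718 and 1420 in the other cells. A cell without a Foxp3 UMI can still express the gene, so these are classes of detection.

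In γδ T-like cells with a Trdc UMI (45 chow and 96 ketogenic), which carry the δ-chain constant region transcript, Crip1 stood at 9497 and 3898 CPM, a log2 ratio of −1.28. Cells without one (14 and 74) had 4136 and 2656 CPM and a ratio of −0.64. The S100a6 ratios ran the other way round, at −0.37 with and −0.75 without a Trdc UMI. Only 14 chow cells stand behind the class without Trdc.

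In T-like cells with a UMI of Cd8a or Cd8b1 and none of Cd4 (46 chow and 206 ketogenic), Crip1 stood at 4674 and 2707 CPM, a log2 ratio of −0.79. In those with a Cd4 UMI and none of the Cd8 genes (56 and 212), it stood at 5813 and 3334 CPM, a ratio of −0.80. S100a10 (0.13) and S100a11 (0.22) had ratios above 0 in the Cd8 class, against −0.14 and −0.33 in the Cd4 class. In the Cd8 class they rest on 132 and 72 chow UMIs. S100a10 stood there at 936 CPM [783 to 1110] in chow and 1029 [957.5 to 1104] in ketogenic. S100a11 stood at 511 CPM [400 to 643] and 599 [545 to 657]. These intervals overlapped, so the sign in the Cd8 class was not resolved.

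B and plasma-like cells were parted by Jchain, the joining chain of secreted antibody. Cells with under 10 Jchain UMIs had 6573 CPM of Crip1 in chow and 2274 in ketogenic, and those with 10 or more had 2627 and 1117. S100a6 stood at 2876 and 1036 CPM in the first class, and at 320 and 163 in the second. In chow 49 of 82 cells had under 10 Jchain UMIs and in ketogenic 197 of 245, so the make-up of this cluster differed between libraries.

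**Figure D3:**
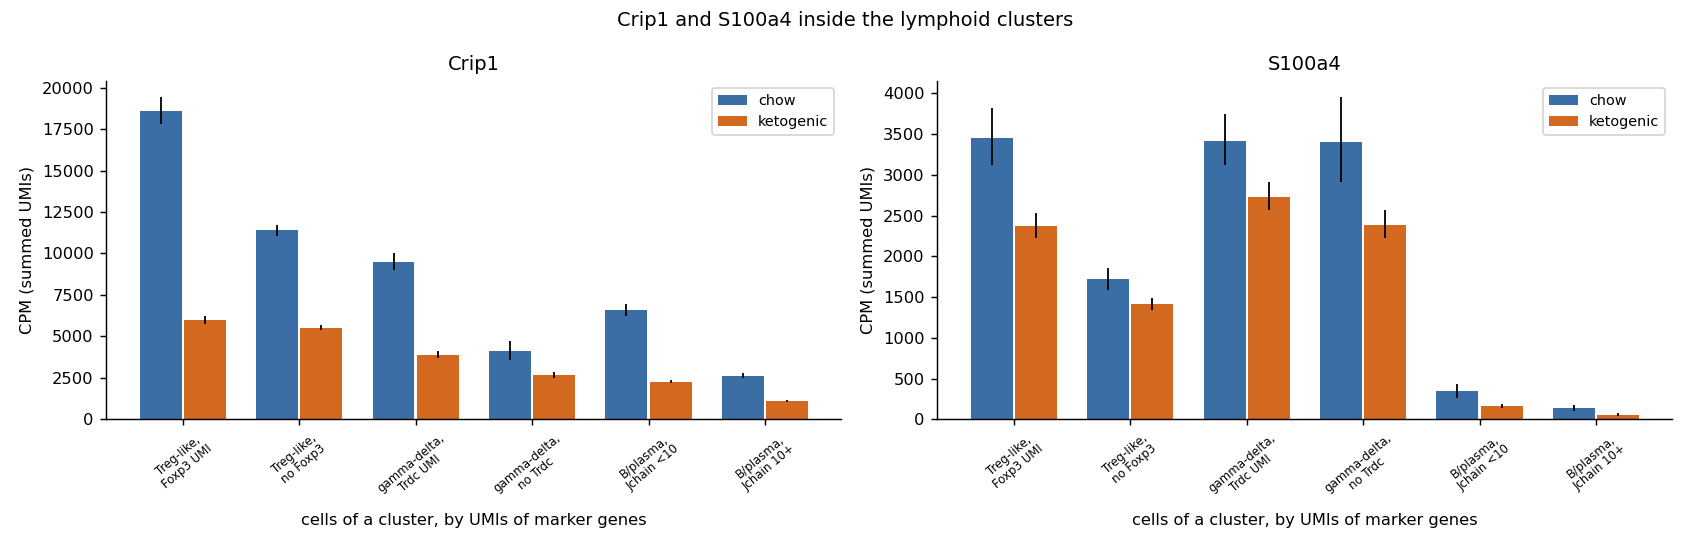
Crip1 (left) and S100a4 (right) in CPM (y axes, linear from 0) in cells of the Treg-like, γδ T-like and B and plasma-like clusters, parted by UMIs of marker genes (x axis); bars are summed UMIs of 1 library with 95% counting intervals. Crip1 is highest in chow Treg-like cells with a Foxp3 UMI, at 18610 CPM, and S100a4 stands at 3456 CPM in those cells against 1718 CPM in chow Treg-like cells without one.

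The medians of the 4 broadly detected S100 genes over clusters were nearer 0 than that of Crip1, but in mature DC-like cells S100a10 (−1.40), S100a11 (−0.73) and S100a6 (−0.68) were lower than Crip1 (−0.57). S100a6 had a median of −0.44 over the 13 clusters, from −0.73 in B and plasma-like cells to −0.07 in cycling cells, where the interval of −0.15 to 0.00 reached equality. Within classes of these clusters its ratio differed: it was −1.47 and −0.97 in B and plasma-like cells with under 10 and with 10 or more Jchain UMIs, and 0.36 and −0.96 in cycling cells with under 10 and with 10 or more macrophage marker UMIs. S100a11 had a median of −0.35 and S100a4 and S100a10 of −0.32 each. For S100a4 the ratio nearest 0 was that of cluster 8, −0.02 [−0.18 to 0.14], and for S100a11 that of B and plasma-like cells, −0.10 [−0.32 to 0.12]. In cluster 8, 1 chow cell held 196 of the 4062 chow UMIs of S100a4. The median cell there had 12.4 S100a4 UMIs per 10000 in chow and 13.7 in ketogenic. In B and plasma-like cells with under 10 and with 10 or more Jchain UMIs, the S100a11 ratio was −0.71 and −0.22. The S100a4 ratio in these classes was −1.06 and −1.22. Counting intervals lay wholly below equality in 12 clusters for S100a4, S100a6 and S100a11 and in 13 for S100a10 and Crip1.

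S100a10 in mature DC-like cells, migratory dendritic cells marked by Ccr7 and Fscn1, was the only 2-fold pair of these 4 genes over whole clusters. It had 290 UMIs in 60 chow cells and 97 in 49 ketogenic cells, 745 CPM [661 to 835] against 280 CPM [227 to 342], a log2 ratio of −1.40 [−1.76 to −1.07]. In that cluster 1.9% of genes were 2-fold lower. The median cell had 5.27 S100a10 UMIs per 10000 in chow and 0.987 in ketogenic, and the share of cells with a UMI was 90.0% and 53.1%. Anxa2, whose product binds S100a10, stood at 1122 and 859 CPM in the same cells, a log2 ratio of −0.39. Macrophage markers stood at 750 and 147 CPM there, and the S100a10 ratio was −1.88 after the 10% subtraction.

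**Figure D4:**
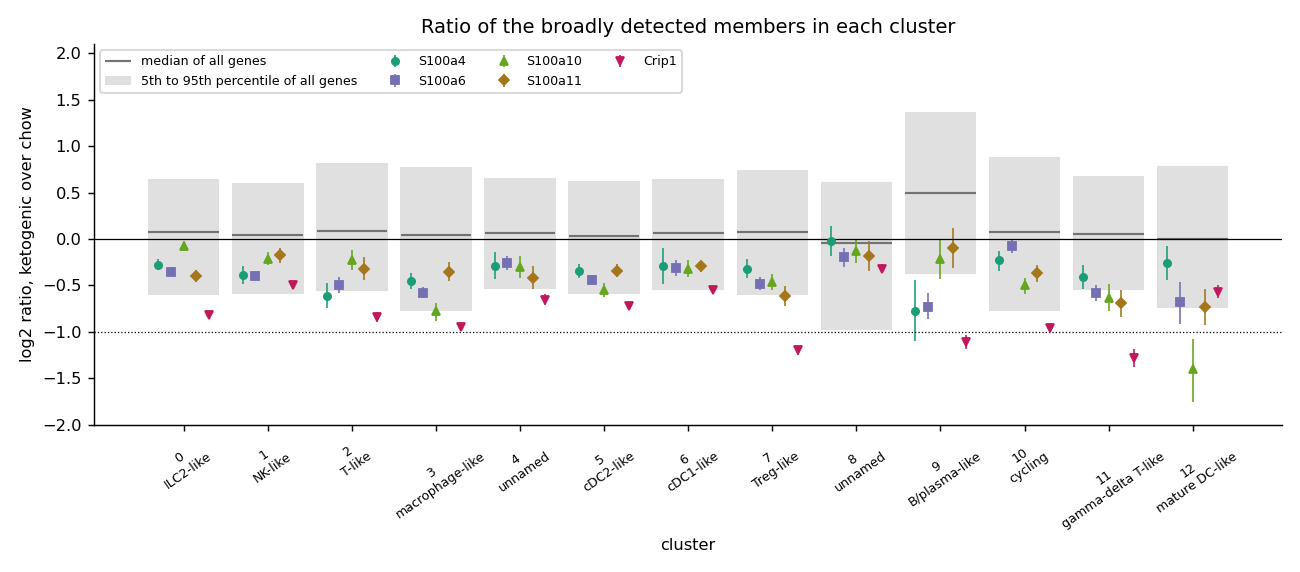
Log2 ratio of the ketogenic over the chow library (y axis) for 5 members in the 13 clusters (x axis), with bars for 95% counting intervals, grey blocks for the 5th to 95th percentile of all genes at 100 UMIs and a dotted line at 2-fold lower. Crip1 passes the dotted line in Treg-like, B and plasma-like and γδ T-like cells, S100a10 in mature DC-like cells, and the 4 S100 genes otherwise lie mostly within the grey blocks.

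S100a8 and S100a9 differed from the other members in being held by very few cells. In macrophage-like cells S100a8 had 793 chow and 9 ketogenic UMIs, 156 CPM [146 to 167] against 10.1 [4.61 to 19.1], and S100a9 had 512 and 1. In ILC2-like cells S100a8 had 151 and 17 UMIs and S100a9 had 117 and 9, log2 ratios of −3.99 [−4.84 to −3.30] and −4.50 [−5.74 to −3.60]. These 4 pairs complete the 8 that were 2-fold lower; 2.75% of genes in cluster 3 and 1.11% in cluster 0 were 2-fold lower.

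Cells with at least 10 UMIs of the pair together numbered 10 of 4458 clustered chow cells, 0.224% [0.108 to 0.412, exact binomial], and 0 of 5559 ketogenic cells, for which the same interval reaches 0.0663% and the limit of 3 counts allows a share of up to 0.0540%. The ratio of the ketogenic over the chow share was 0, with an exact upper limit of 0.358. Those 10 cells held 79.1% of the S100a8 and 77.3% of the S100a9 UMIs of the chow clusters. No cell of either library had 5 to 9 UMIs of the pair: below the threshold the highest was 3 in chow and 4 in ketogenic cells, and the lowest cell above it had 11. The other 9 cells had from 47 to 242.

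Of the 10 cells, 8 were in the macrophage-like cluster, 1 in the ILC2-like cluster and 1, the cell with 11 UMIs, in the T-like cluster. The ILC2-like cell alone had 125 of the 151 S100a8 and 98 of the 117 S100a9 UMIs of its chow cluster. It also had 12 UMIs over 5 neutrophil genes (3 of Csf3r and 2 of Cxcr2 among them), 14 of Ly6c2 and 6 of Gata3. Without the cell with the most UMIs in each library, both pairs in cluster 0 dropped under 100 UMIs. Their log2 ratios were then −1.56 for S100a8 and −2.07 for S100a9.

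**Figure D5:**
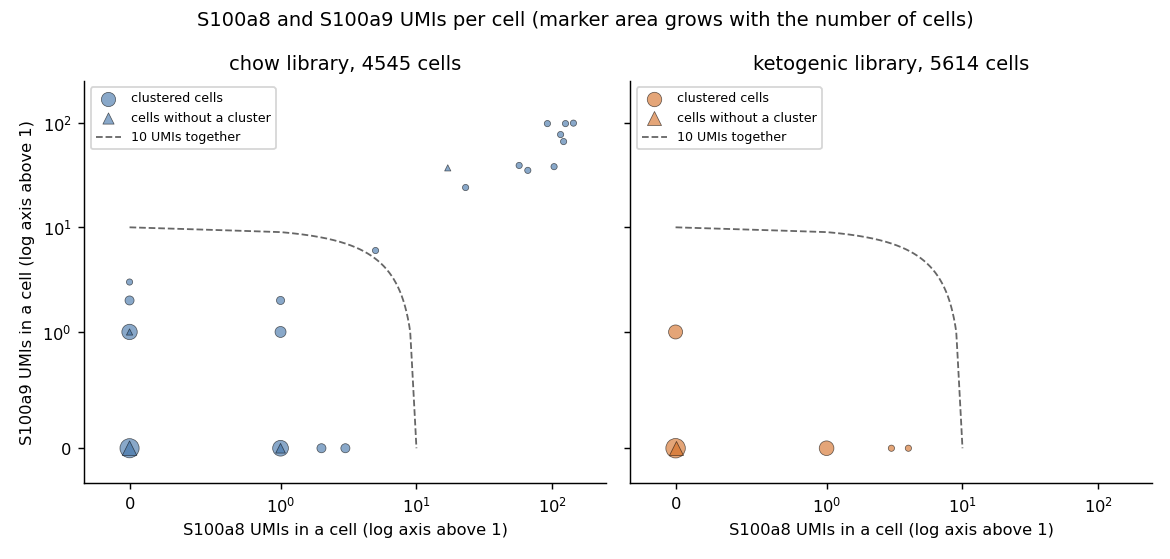
S100a8 UMIs (x axis) against S100a9 UMIs (y axis) in single cells of the chow and ketogenic libraries, on axes that are logarithmic above 1, with triangles for cells without a cluster, marker area growing with the number of cells and a dashed line at 10 UMIs together. In chow 11 cells (10 clustered) lie beyond the line and all others have at most 3 UMIs together, while no ketogenic cell lies beyond it.

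The 8 rich cells of the macrophage-like cluster were compared with the rest of that cluster on genes other than the pair that selected them. Summed over 16 neutrophil genes, they had 155 UMIs, 4896 CPM, against 337 CPM in the other 851 chow cells and 334 CPM in the 145 ketogenic cells. Retnlg, a neutrophil secretory gene, had 29 UMIs in the 8 cells, 1 in the other chow cells and 0 in the ketogenic cells. G0s2 had 57, 26 and 23 UMIs, Cxcr2, the neutrophil chemokine receptor, 5, 2 and 1, and Wfdc21 10, 9 and 0. The granule genes Camp, Ltf and Ngp and the surface marker Ly6g were at 0 in all 3 sets. Macrophage markers had 483 UMIs in the 8 cells, of which 254, 128 and 53 were in 3 cells and between 1 and 27 in each of the other 5, and Ly6c2 had 1 UMI in the rich cells against 1859 in the others. Crip1 stood at 6665 CPM [5796 to 7628] summed over the 8 cells, 10938 in the other chow cells and 5646 in the ketogenic cells. In 5 of the 8 it had between 3 and 19 UMIs. In the others it had 56 of 2349, 58 of 6878 and 56 of 5316 UMIs of the cell, so its level was not low in all of them.

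Outside the rich cells, S100a8 and S100a9 were detected at a low level in nearly every cluster of both libraries. Over the chow clusters S100a8 ran from 5.74 to 17.8 CPM and S100a9 from 5.27 to 20.5, with the highest S100a8 level in T-like and the highest S100a9 level in mature DC-like cells. Those maxima rest on 11 and 8 UMIs, and the order of clusters was not resolved. Over the ketogenic clusters they ran from 0 to 10.1 and from 0 to 3.09 CPM. After thinning each cell to 1000 UMIs, 1.26% to 2.86% of chow cells had a UMI of either gene, and 0% to 1.01% of ketogenic cells. In chow the shares of T-like cells (2.63%) and Treg-like cells (2.67%) were above that of the macrophage-like cluster (2.09%) and those of NK-like (1.85%) and B and plasma-like cells (1.30%) below it, and these low shares were not read as expression. The lower level in ketogenic clusters went with the absence of rich cells from that library, and its source was not tested.

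To set differences in cluster shares aside, levels were averaged over clusters with 1 common set of weights, the mean share of cells over the libraries. Differences in make-up within a cluster stay in these averages. The log2 ratios were then −0.74 for Crip1 [−0.76 to −0.73], −0.41 for S100a6, −0.36 for S100a11, −0.34 for S100a4 and −0.30 for S100a10. Without weights they were −1.12, −0.57, −0.40, −0.58 and −0.40, so among these 5 Crip1 and S100a4 moved most; cluster 8, where Crip1 was highest, and cluster 3 were larger in chow. S100a8 stood at −3.15 and S100a9 at −3.85 with weights, at −3.81 and −4.06 without weights, and at −1.34 and −2.12 without the rich cells.

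The consistency of the sign was set against other genes. Of 595 genes with 100 UMIs in each of the 13 clusters, 31 (5.21%) had a ratio below 0 in all 13, and all 5 broadly detected members were among them. After the free RNA subtraction S100a4, S100a6 and S100a11 each had at least 1 cluster above 0. Crip1 had the 6th lowest median of the 595, S100a6 the 28th, S100a11 the 39th, S100a4 the 49th and S100a10 the 50th. Others of the 31 were Cd44, the adhesion receptor of activated lymphocytes (−1.04), Flna, an actin cross-linker (−0.66), Ahnak, a scaffold that binds S100a10 (−0.55), Tagln2 (−0.49) and S100a13 (−0.32). The set also held 5 predicted genes, such as Gm10076, and 3 ribosomal protein genes or pseudogenes. Of the 31, 16 were among the 149 genes of shortest exonic length (10.7% of these), as were S100a4, S100a6, S100a10 and S100a11, and the median log2 ratio was −0.13 over those 149 against 0.03 over all 595. By increasing length, the other quartiles of the 595 held 7 (4.73%), 0 (0%) and 8 (5.37%) such genes. Without ribosomal protein, predicted and member genes, 5 of the 99 left among the shortest (5.05%) were below 0 in every cluster, with the same median of −0.13; the other quartiles were not filtered in this way. The part of length in the members' ratios was not tested.

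Among the 13 other S100 and Crip genes, S100a13, S100a1 and Crip2 were measured. S100a13, a neighbour on chromosome 3 that takes part in export of growth factors without a signal peptide, had ratios from −0.45 in γδ T-like cells to −0.14 in cycling cells. S100a1 had 1588 chow and 837 ketogenic UMIs and a same-weight log2 ratio of −0.57 [−0.73 to −0.41], and Crip2 had 660 and 390 UMIs and a ratio of −0.81 [−1.04 to −0.58]. S100a3 had 8 chow and 30 ketogenic UMIs, with a same-weight interval of −0.12 to 2.49 that includes equality. S100a13, S100a1 and Crip2 gave 39 pairs with at least 10 UMIs, of which 37 (94.9%) were below 0 and 6 were 2-fold lower. At that minimum, 44.8% of all 115758 pairs of gene and cluster were below 0, 5.72% were 2-fold lower and 7.68% were 2-fold higher.

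The lists of partner genes were counted at the same minimum. Of 130 pairs of cluster and annexin or other binding partner, 63 (48.5%) were below 0, 3 were 2-fold lower and 4 were 2-fold higher, and the list median ran from −0.12 to 0.27 over clusters. Anxa2 was below 0 in 10 of 13 clusters with a median of −0.08, and Myh9, the myosin heavy chain that S100a4 binds, in 12 of 13 with a median of −0.31. Anxa6 was at or above 0.08 in the 12 clusters where it reached 100 UMIs. Actin and cytoskeleton genes gave 84 of 169 pairs (49.7%) below 0. Within that list Tagln2 and Emp3 were below 0 in all 13 clusters and Coro1a and Arpc1b above 0 in all 13. Receptors reported for S100 proteins gave 28 of 45 pairs (62.2%) below 0, with 12 at 2-fold lower and 1 at 2-fold higher. Most of the 12 had under 100 UMIs, such as Cd36 in cluster 4 with 9 chow and 5 ketogenic UMIs. At 100 UMIs, Cd36 had ratios from −1.81 to −0.38 in 4 clusters and Alcam from −0.72 to −0.09 in 5. Bsg reached that minimum in all 13, with a median of 0.13. Among them, Cd36, a fatty acid and lipoprotein scavenger receptor, stood in macrophage-like cells at 229 CPM in chow and 64.9 in ketogenic, a log2 ratio of −1.81, while Tlr4 (0.22) and Bsg (0.06) were above 0.

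Likeness of pattern was described by the correlation of log2(CPM + 20) over the 26 cluster and library sums, which share a library, depth and free RNA. Among the members, S100a6 was most like S100a10 (r = 0.87) and S100a4 (r = 0.81), and both held in each library, with 0.86 and 0.82 in chow and 0.86 and 0.79 in ketogenic clusters. S100a8 and S100a9 had r = 0.95 over both, 0.96 in chow and −0.11 in ketogenic clusters. Their highest ketogenic levels, 10.1 and 3.09 CPM, lay below the 20 CPM added, so the −0.11 cannot be read. In chow both genes were highest in clusters 3 and 0, where most of the rich cells were. Crip1 was closest among members to S100a11 (r = 0.67). Among 6689 genes with at least 500 UMIs, those most like Crip1 were Rbpj, the DNA-binding effector of Notch signalling (0.90), Prkab2 (0.89) and Itpripl2 (0.86). Those most like S100a6 were Diaph1, a formin (0.91), Ier3ip1 (0.90) and S100a13 (0.87), and those most like S100a10 were Plec, a cytoskeletal linker (0.90), Wdr83os (0.89) and Ier3ip1 (0.89). For S100a4 they were Crtc3, Mycbp2 and Eif1 (0.83, 0.83 and 0.82), and for S100a11 Gnb1, Tomm7 and Ctdsp2 (0.84, 0.83 and 0.83). For S100a8 they were Zfp703, Ccl7 and Snx27 (0.77, 0.76 and 0.75), and for S100a9 Ccl7, Snx27 and Ets2 (0.71, 0.66 and 0.66). These lists were not stable: of these 21 pairs of member and similar gene, 6 were found again by rank correlation.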

How the data were processed

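The authors deposited, per library, a matrix of UMI counts per gene and cell barcode (10x Genomics libraries, per the labels' protocols) and a table with the cluster number of each cell at resolution 0.5, its library name and t-SNE coordinates, which are not used here. Cell Ranger, Seurat and the build mm10 are named in the submitters' processing notes; versions, filters and doublet handling are not given in the sources used here. The 142 barcodes without a cluster had over 5% mitochondrial UMIs (lowest 5.00%) and were left out of the comparisons; no doublet caller was run. The libraries shared 41 barcode sequences, all among clustered cells, and cells were kept by library.

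UMIs were summed per cluster and library with Python 3.11.15 (numpy 2.4.6, scipy 1.17.1, pandas 2.3.3), without imputation or batch correction. Ratios were called at 2-fold among genes with 100 UMIs over both libraries. Intervals at 95% were exact Poisson, exact conditional or exact binomial. With 1 library per diet no p-value was computed. Genes named are the 7 members, their pairs past 2-fold or at an extreme of level, up to 4 measured genes of a list and the 3 most similar genes per member. Members and lists were chosen with earlier results of these data known. Of the gene IDs, 28339 (98.8%) were found in GENCODE M21 (GRCm38). The ratio was tested on simulated counts. Alternatives were minimums of 50 and 200 UMIs, deeper cells, other denominators and centring, means over cells, free RNA subtraction, leaving out top or rich cells, and a 1.5-fold threshold. A further split of T-like cells is not reported here.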

Additional observations from a re-analysis of the deposited data

Results flagged for a closer look

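The cells that the deposited table placed in no cluster, 87 in chow and 55 in ketogenic, take no part in the comparisons and were looked at apart. In chow, 3 members stood above the clustered cells of that library beyond counting error. S100a9 had 38 UMIs, 171 CPM [121 to 235], against 35.1 CPM in the clustered cells, and S100a8 had 21 UMIs, 94.5 CPM [58.5 to 144], against 50.3. Of these UMIs, 37 and 17 were in 1 cell, which also had 3 UMIs of Cxcr2, 6 of G0s2 and 1 of Csf3r. S100a6 stood at 3257 CPM [3024 to 3503] against 2993. In ketogenic cells without a cluster, S100a8 and S100a9 were at 0, which allows up to 17.1 CPM. The other members were lower there than in chow: Crip1 at 2398 against 6933 CPM and S100a4 at 313 against 1246 CPM.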

How the results depend on the processing

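The count of 8 pairs 2-fold lower moved to 23 at a 1.5-fold threshold and to 4 without the cells rich in S100a8 and S100a9, and lay between 6 and 11 under the other alternatives. The 8 pairs were all kept with centred ratios (11 called), means over cells (9), free RNA subtracted (9) and cells at least as deep as the shallowest ketogenic cell (8). At a minimum of 200 UMIs 6 of them remained. Without mitochondrial and ribosomal protein genes in the total 7 remained, and Crip1 in B and plasma-like cells (−0.97) did not. No pair was 2-fold higher under any alternative run. The log2 ratios of all 7 members with the same weight per cluster stayed below 0 in the 5 alternatives tried. The share of rich cells in ketogenic stayed at 0 with thresholds of 5 and 20 UMIs, with thinning and over all barcodes. With 10% free RNA subtracted 4 ratios turned above 0: S100a4 in cDC1-like cells (from −0.29 to 0.34) and in cluster 8 (0.02), S100a11 in B and plasma-like cells (0.07) and S100a6 in cycling cells (0.01). Without mitochondrial and ribosomal protein genes in the total, 2 were at or above 0. With centred ratios, with means over cells and without the top cell it was 1 each. Of the 21 pairs of member and similar gene, 6 were found again with Spearman's correlation, 3 from chow clusters alone and 4 from ketogenic clusters alone, and the cause was not tested. S100a8 and S100a9 reached 100 UMIs only in clusters 0 and 3, which held 9 of the 10 rich cells; elsewhere their counts were too low for a ratio. No paired analysis was possible because each diet has 1 library.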
